A study of Mus musculus with 2 samples.

Results

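The 7 genes described here encode the class II antigen presentation route of the mouse: *H2-Aa*, *H2-Ab1* and *H2-Eb1*, the chains of the surface molecule that shows peptides to CD4 T cells, *Cd74*, the invariant chain that blocks the peptide groove during transport, *H2-DMa* and *H2-DMb1*, the pair that exchanges the last piece of the invariant chain for a peptide, and *Ciita*, the coactivator on which transcription of the others depends. They were chosen by name, with earlier results of these data known, and all 7 were among the 19059 genes of the count files. Class II molecules are carried mainly by dendritic cells, Langerhans cells, B cells and macrophages, and interferon gamma can switch the route on in other cells through *Ciita*. In skin, Langerhans cells of the epidermis are rich in class II, while resident macrophages marked by *Lyve1* are known as cells with little of it. C57BL/6 mice lack a working *H2-Ea* gene, so that the product of *H2-Eb1* has no partner for the surface in this strain.

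The study sequenced dissociated whole skin with probe-based single-cell profiling (10x Flex), in which pairs of probes are counted as unique molecular identifiers (UMIs). Dorsal skin of 1 wildtype C57BL/6J mouse was compared with that of 1 *Eppk1*-/- mouse backcrossed into the same strain, both untreated, and no age was given. *Eppk1* encodes epiplakin, a plakin of epithelial cells, and the study asked what its loss does to skin. With 1 library per genotype, genotype, mouse and library cannot be told apart, no test was possible and no p-value is given, and every interval is an exact 95% interval that covers counting error only. Levels are UMIs of a gene over all UMIs of the cell group, scaled to CPM, ratios are log2 of *Eppk1*-/- over wildtype, and a ratio past 0.5 in either direction was counted as a change in size. Levels of different genes are not compared, since probe numbers and lengths differ.

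The filters of the study kept 8875 wildtype and 8617 *Eppk1*-/- cells, with medians of 4941 and 4992 UMIs. The targeted gene, *Eppk1*, had 114139 UMIs over all wildtype cells and 20514 UMIs over all *Eppk1*-/- cells, and its log2 ratio in keratinocytes was -1.92, from a wildtype level of 3010 CPM. Where its probes lie relative to the targeted sequence is not given in the sources used here. The libraries had 1211 droplet barcodes in common, and the kept cells in them numbered 1167 and 1183. Without these cells the summed ratios given below were 2.59 in place of 2.55 in the *Lyve1* and *Fcna* macrophages, 0.55 in place of 0.52 in the *Ccl8* and *Cd209b* macrophages, 0.092 in place of 0.12 in Langerhans cells, 0.62 in place of 0.29 in keratinocytes and 0.43 in place of -2.32 in endothelial cells. Cells were clustered without the class II genes. The groups used were 216 wildtype and 204 *Eppk1*-/- macrophages with *Lyve1* and *Fcna* among their leading genes, 205 and 471 macrophages with *Ccl8* and *Cd209b*, 151 and 181 monocyte-like cells with *Il1b* and *Ccr2*, 122 and 93 Langerhans cells, 5536 and 4068 keratinocytes, and 105 and 61 endothelial cells. All 6 Langerhans markers were detected in at least 25% of the Langerhans cells of each library, and no cluster was named dendritic at this resolution. By the naming rule, a cluster scored dendritic was called monocyte-like if more monocyte-like than dendritic markers were among its leading genes. Unnamed leukocyte clusters were left out. In 1 of them (20 and 39 cells), with immunoglobulin genes and *Clec9a* leading and 5 of 13 dendritic markers detected, the 7 genes summed to 63806 and 30666 CPM, a ratio of -1.06. At resolution 1 and without integration, a cluster led by immunoglobulin genes held 0 wildtype and 25 *Eppk1*-/- cells, the latter at 9873 CPM. The libraries may thus give different cells to that ratio, and this was not tested. The unnamed clusters led by *Ighm* (93 and 77 cells) and *Clec4d* (37 and 46 cells) were at 28117 and 31265 CPM and at 17720 and 27903 CPM. Each had 11 of 11 macrophage markers detected in at least 25% of cells. Beside them, the first had 12 of 13 keratinocyte markers and the second 8 of 8 fibroblast markers. The monocyte-like cells rested on 3 of 8 markers, and 3 and 4 of 13 dendritic and 8 and 6 of 11 macrophage markers were detected in at least 25% of them, and *Ly6c2* and *Cx3cr1* were not measured. The endothelial group also held RNA of other cells: 11 of 13 keratinocyte markers were detected in at least 25% of its wildtype cells and 2 of 13 in *Eppk1*-/-. Of the fibroblast markers 6 of 8 were detected as widely in each library, at 10758 and 9092 CPM summed. Of the endothelial markers 5 and 8 of 10 were, at 5048 and 5568 CPM. At resolution 1 a cluster of 35 and 23 cells had 10 of 10 endothelial markers. An unnamed cluster led by *Dag1* and *Cald1* (70 and 39 cells, median 887 UMIs) had 8 of 13 keratinocyte and 6 of 8 fibroblast markers.

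Class II promoters are known for an X box followed by a Y box, the sites at which the factors that recruit *Ciita* bind. These stretches are shown because 3 of the 7 genes held such a pair in the windows searched. The RefSeq promoter windows searched (GRCm38.p6, 300 bases) held 4 of the 7 genes. *H2-Ab1* and *Ciita* had no window, and *Cd74* was left out of the search, so nothing is said of its promoter. A search for CTNGNAAC (X core) followed on the same strand, within 40 bases, by GATTGG (Y box) was made on both strands, with letters written after these promoters had been read. The capitals mark the matched letters, 5′ to 3′ on the strand of the gene:
*H2-Aa*, chr17:34287857-34287917, minus strand: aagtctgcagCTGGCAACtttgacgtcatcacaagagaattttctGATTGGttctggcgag
*H2-Eb1*, chr17:34305763-34305822, plus strand: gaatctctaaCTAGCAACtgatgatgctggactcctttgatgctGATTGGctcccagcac
*H2-DMb1*, chr17:34153084-34153144, plus strand: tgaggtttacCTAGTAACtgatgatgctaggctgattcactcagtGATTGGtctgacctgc
The letters between the matches numbered 27 in *H2-Aa*, 26 in *H2-Eb1* and 27 in *H2-DMb1*. The ordered pair occurred in 52 of the 32851 windows searched (0.158%), the X core alone in 13.2% and the Y box alone in 16.1%. These windows leave out part of the genome. Neither window of *H2-DMa* held the pair, which says only that these letters are not in those windows.

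In the wildtype library all 7 genes were highest in Langerhans cells, followed by monocyte-like cells, the *Ccl8* and *Cd209b* macrophages and the *Lyve1* and *Fcna* macrophages, as the plot of levels by cell group shows. The *Eppk1*-/- library had the same order for 6 of the 7, and in it *Cd74* was higher in monocyte-like than in Langerhans cells. *Cd74* was at 45271 and 48094 CPM in wildtype and *Eppk1*-/- Langerhans cells, 37866 and 49156 CPM in monocyte-like cells, 15662 and 21502 CPM in the *Ccl8* and *Cd209b* macrophages and 3066 and 15094 CPM in the *Lyve1* and *Fcna* macrophages. *Ciita* ran from 439 CPM in wildtype Langerhans cells to 3.12 CPM in wildtype *Lyve1* and *Fcna* macrophages.

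**Figure D1:**
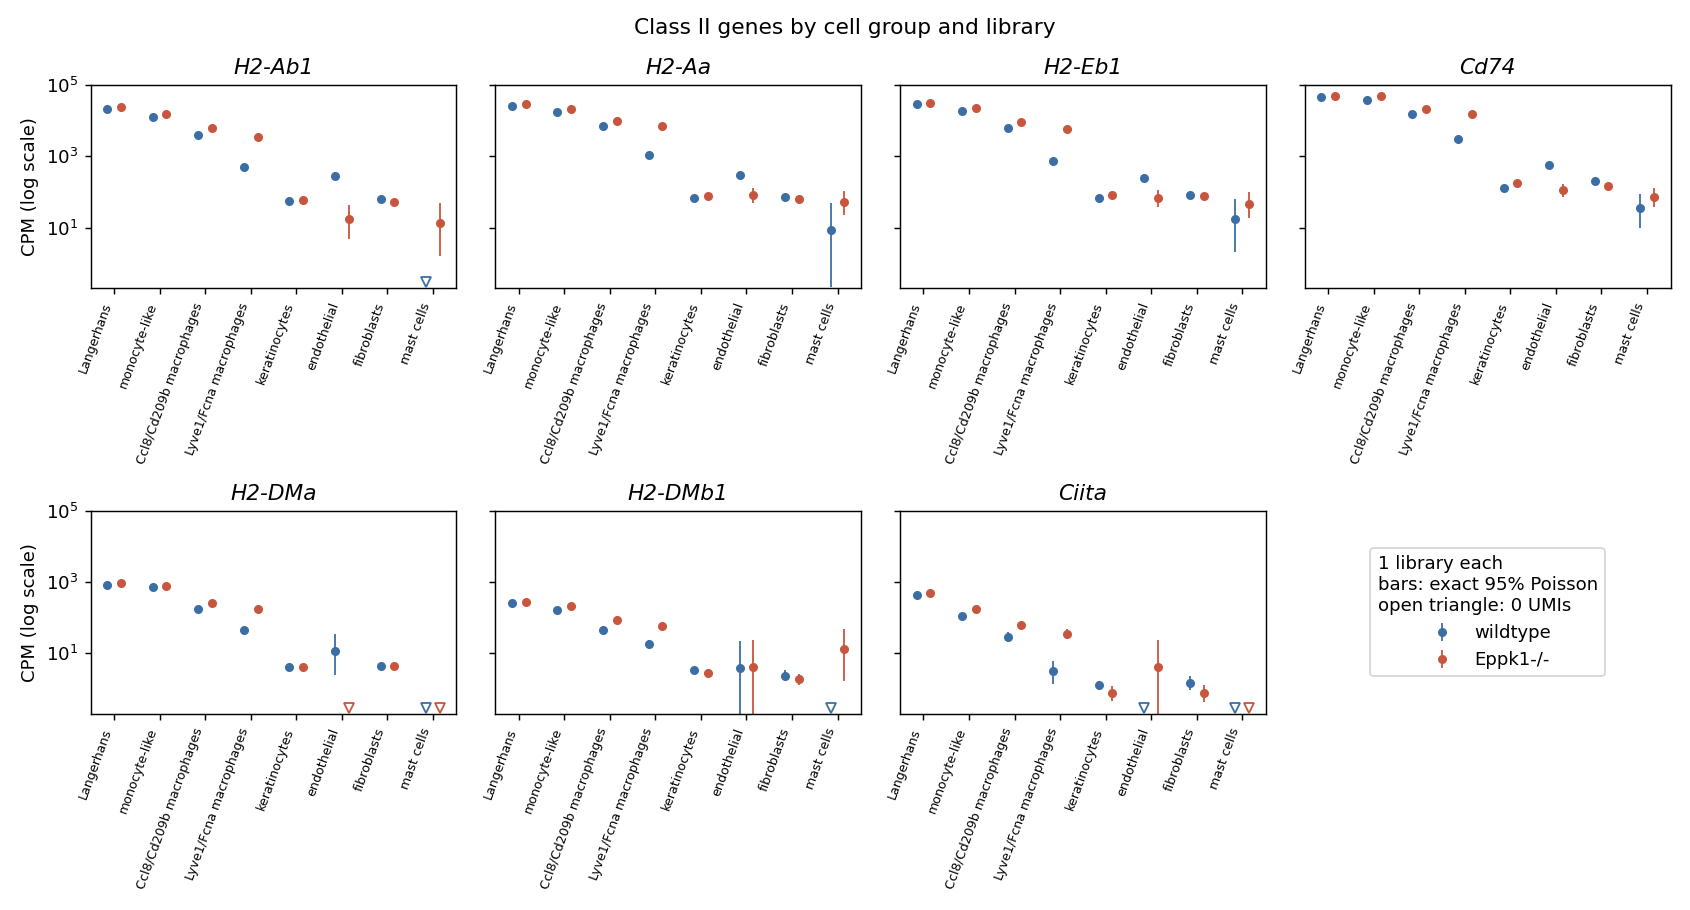
CPM (log axis) of each of the 7 genes in 8 cell groups, wildtype in blue and *Eppk1*-/- in red, 1 library each, with exact 95% Poisson bars; open triangles mark groups with 0 UMIs. In the *Lyve1* and *Fcna* macrophages, *Cd74* was at 3066 and 15094 CPM.

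The *Lyve1* and *Fcna* macrophages showed the widest difference among the macrophage, monocyte-like and Langerhans groups. *H2-Ab1*, the class II beta chain, was at 487 CPM (460 to 515) in the wildtype and at 3571 CPM (3464 to 3680) in the *Eppk1*-/- cells. *H2-Aa*, its alpha partner, was at 1076 and 6903 CPM, and *H2-Eb1* at 736 and 5964 CPM. The ratios of these chains were 2.87 (2.78 to 2.97), 2.68 (2.62 to 2.75) and 3.02 (2.95 to 3.09) on the log2 scale. *Cd74* was 4.92-fold higher, with a ratio of 2.30 (2.26 to 2.34).

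The less abundant members of the route were higher in the same cells. *H2-DMa* was at 43.7 and 180 CPM, a ratio of 2.04 (1.71 to 2.39). *H2-DMb1* was at 17.9 and 57.7 CPM, a ratio of 1.68 (1.13 to 2.26), and its near-identical paralog *H2-DMb2* had 1 and 3 UMIs there. *Ciita* had 8 UMIs in wildtype and 42 UMIs in *Eppk1*-/- cells, 3.12 CPM (1.35 to 6.15) against 35.7 CPM (25.7 to 48.2). All 7 genes were thus past 0.5 upward, where 8.25% of the 7095 genes with at least 50 UMIs were past 0.5 upward and 32.7% downward. *Ciita* reached that minimum of 50 UMIs exactly, with 42 of them in *Eppk1*-/- cells, so its place in the count was favoured by the minimum. The median ratio was 2.68 for the 7 genes and -0.26 for all genes.

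The depth of these macrophages differed between the libraries, with medians of 11764 UMIs per wildtype and 5660 UMIs per *Eppk1*-/- cell, so cells were also thinned to 2000 UMIs each. Thinned, 214 of 216 wildtype and 200 of 204 *Eppk1*-/- cells remained. *H2-Ab1* was then detected in 37.4% of wildtype and 87.0% of *Eppk1*-/- cells, against 67.6% and 94.6% unthinned. *Ciita* was detected in 0.467% and 7.0% of thinned cells. In mast cells, which should lack the route, *H2-Ab1* was detected in 0 of 31 and 0 of 46 thinned cells. Allowing 3 counts for a 0 gives shares of up to 9.68% and 6.52%, and the exact upper limits were 11.2% and 7.71%. The median depths of all mast cells before thinning were 2289 and 2569 UMIs. Other chains were found there: *H2-Aa* and *H2-Eb1* each in 0 of 31 and 4 of 46 cells, and *Cd74* in 3 of 31 and 4 of 46.

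The difference was spread over the cells rather than held by a few, as the box plot of UMIs per cell shows. A thinned wildtype cell held a median of 6 UMIs of the 7 genes, with 2 and 14.8 as quartiles, and an *Eppk1*-/- cell a median of 62, with 31.8 and 90.2. Of the *Eppk1*-/- cells, 191 of 200 (95.5%) lay above the wildtype median, and 5 of 214 wildtype cells (2.34%) lay above the *Eppk1*-/- median. The highest wildtype cell held 116 and the highest *Eppk1*-/- cell 181, so the ranges overlapped.

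**Figure D2:**
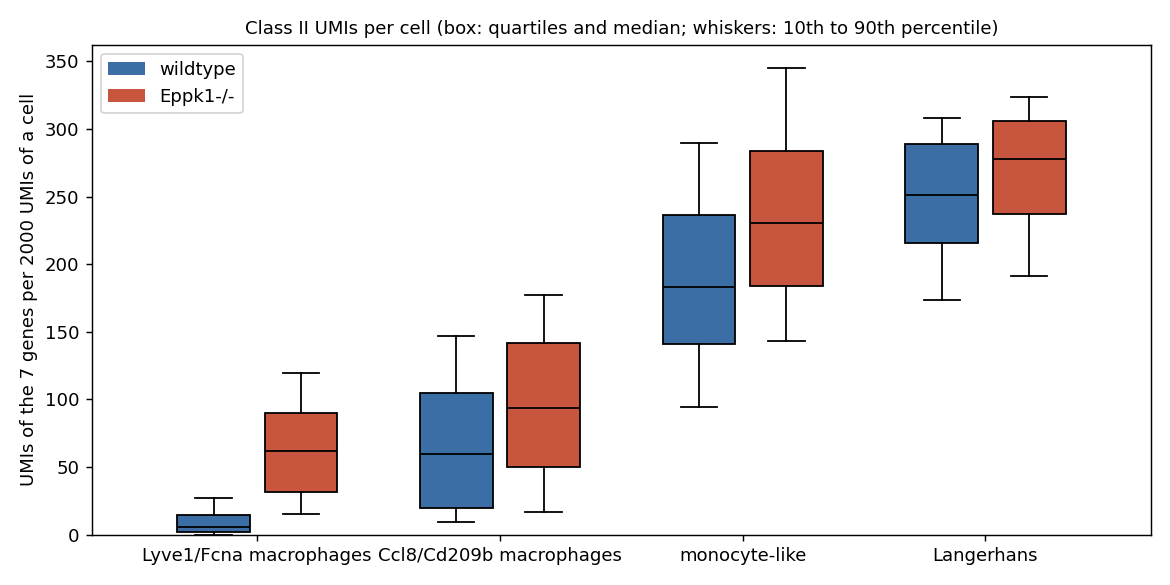
UMIs of the 7 genes per 2000 UMIs of a cell in 4 groups, wildtype in blue and *Eppk1*-/- in red; boxes give the median and quartiles and whiskers the 10th and 90th percentiles over cells, which are not replicates. The medians are 6 and 62 in the *Lyve1* and *Fcna* macrophages and 251.5 and 277.5 in Langerhans cells.

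The markers that name this group moved as well. *Lyve1* was at 3230 CPM in the wildtype and at 1199 CPM in the *Eppk1*-/- cells, *Fcna* at 4118 and 2162 CPM and *Timd4*, a receptor of long-lived resident macrophages, at 545 and 233 CPM. *Cd209b* was at 551 and 991 CPM and *Ccl8* at 1869 and 2861 CPM. The lists did not move as one. *Folr2*, also a listed marker of the group, was higher, at 3200 and 3774 CPM. *Cd163*, on the list with *Ccl8* and *Cd209b*, was lower, at 1769 and 1429 CPM. All 6 listed markers of the group were detected in at least 25% of cells of each library, with a summed level of 18967 and 12579 CPM, and all 6 markers of the *Ccl8* and *Cd209b* list were too, at 9858.5 and 9366 CPM. The summed Langerhans list was at 1776 and 1653 CPM with 2 of 6 markers detected as widely in each library, the dendritic list at 1314 and 1675 CPM with 3 of 13 markers at 0 in each, and the monocyte-like list at 2080 and 1007 CPM. Their part in the result was not tested. Of the defining markers of other class II cells, *Itgax* had 4 and 0 UMIs, *Flt3* 0 and 1, *Cd207* 68 and 6 and *Ccr7* 9 and 12 UMIs. *Ccr7* was thus at 3.51 and 10.2 CPM, a ratio of 1.52 (0.17 to 2.96), and *Ccr2* at 14.8 and 28.9 CPM, a ratio of 0.96 (0.25 to 1.67). Among cells with at least 1 UMI each of *Lyve1*, *Fcna* and *Timd4*, the summed ratio of the 7 genes was 2.47, and among cells of 3000 to 10000 UMIs 2.38, against 2.55 over all cells.

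How the cells were grouped changed who was compared with whom. Without integration of the libraries, a cluster with the same leading genes held 218 wildtype and 13 *Eppk1*-/- cells, at 5339 and 23569 CPM for the 7 genes summed, and 163 *Eppk1*-/- and 7 wildtype cells fell into a cluster led by *Ccl4* and *Ccl3*, at 31772 and 19438 CPM. *Ccl4* was at 1056 CPM in the wildtype and at 4579 CPM in the *Eppk1*-/- cells of the integrated group. The part of these differences in the class II ratio was not tested.

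The *Ccl8* and *Cd209b* macrophages started from a higher wildtype level and differed less. Their naming genes *Ccl8*, at 5861 and 3725 CPM, and *Cd209b*, at 1448 and 1474 CPM, are given beside *Lyve1* at 921 and 546 CPM, *Ccr2* at 5.43 and 33.3 CPM and *Il1b* at 3.88 and 15.5 CPM, and the part of these differences was not tested. *H2-Ab1* was at 3894 and 6090 CPM, a ratio of 0.65 (0.60 to 0.69), *H2-Aa* at 6846 and 10033 CPM and *H2-Eb1* at 6358 and 9243 CPM. *Cd74*, at a ratio of 0.46 (0.43 to 0.48), was the member under 0.5. *H2-DMa* had a ratio of 0.61 (0.39 to 0.84), *H2-DMb1* of 0.86 (0.43 to 1.31) and *Ciita*, at 29.5 and 62.4 CPM, of 1.07 (0.55 to 1.64). So 6 of 7 genes were past 0.5 upward, where 8.31% of 6988 genes were. The clusters that form the group gave nearly the same summed ratio, 0.52 in that led by *Spic* and 0.52 in that led by *Siglech*. The summed ratio was 0.42 without cells of more than 3 UMIs of keratin and collagen genes (*Krt5*, *Krt14*, *Krt10*, *Krt1*, *Col1a1* and *Col3a1*). It was 0.46 as a mean over cells, 0.49 after thinning and 0.48 without integration. These values lay under the 0.5 that counts as a change. A shallow macrophage cluster of 84 and 120 cells, with medians of 919 and 807 UMIs, had a summed ratio of 0.70 (0.62 to 0.78).

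The monocyte-like cells were rich in class II in each library. *H2-Ab1* was at 12207 and 15722 CPM, *H2-Aa* at 17282 and 21358 CPM and *H2-Eb1* at 19061 and 23226 CPM. *Ciita* was the member past 0.5, at 109 CPM (86.8 to 135) in the wildtype and at 180 CPM (153 to 211) in the *Eppk1*-/- cells, where 6.95% of genes were past 0.5 upward. The summed ratio was 0.34 (0.33 to 0.35). At least 40 UMIs of the 7 genes per 2000 were held by 102 of 108 wildtype and 141 of 142 *Eppk1*-/- cells. The group's naming genes were also higher in the *Eppk1*-/- library, *Il1b* at 1964 and 3494 CPM and *Ccr2* at 303 and 427 CPM. *Plac8*, on the same marker list, was lower, at 197 and 105 CPM, and the summed list was at 2791 and 4224 CPM. At resolution 1 a dendritic-like cluster led by *Wdfy4* (78 and 76 cells) formed, with a summed ratio of 0.42, beside monocyte-like clusters led by *F10* (59 and 61 cells) at 0.26 and by *Klri1* and *Ccr7* (27 and 57 cells) at 0.30.

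Summed over the 7 genes, Langerhans cells held the highest level of the groups used, 123431 and 133909 CPM, and the smallest difference, a ratio of 0.12. *Cd74* alone was higher in *Eppk1*-/- monocyte-like cells. At resolution 1 the *Eppk1*-/- cells of the cluster led by *Klri1* and *Ccr7* had a higher sum, 140877 CPM. In Langerhans cells *H2-Ab1* was at 21458 and 24113 CPM, *H2-Aa* at 26061 and 28472 CPM, *H2-Eb1* at 29126 and 31558 CPM and *Ciita* at 439 and 481 CPM. Ratios ran from 0.087 for *Cd74* to 0.17 for *H2-Ab1*, so 0 of 7 genes were past 0.5, where 6.31% of genes were past 0.5 upward and 8.65% downward. The intervals of *H2-DMa*, *H2-DMb1* and *Ciita* reached below 0. Every one of the 116 and 86 thinned cells held UMIs of each chain gene, and *Cd207*, the gene of langerin, was at 11678 and 11548 CPM.

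**Figure D3:**
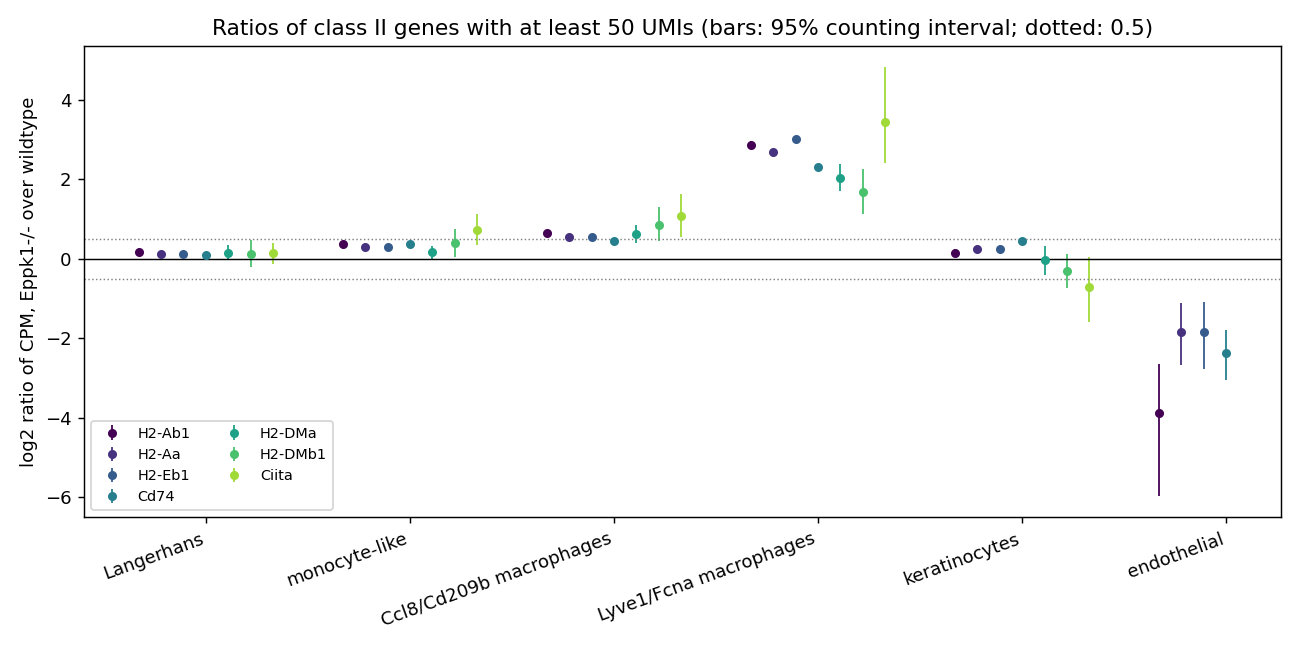
Log2 ratio of CPM, *Eppk1*-/- over wildtype, of each member with at least 50 UMIs in 6 cell groups, with 95% counting intervals; dotted lines mark 0.5 in either direction. All 7 members lie above 1 in the *Lyve1* and *Fcna* macrophages and all 7 lie under 0.5 in Langerhans cells.

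The proportions among the members also varied by group. Per 100 UMIs of the 4 abundant genes, *Cd74* took 57.2 in wildtype and 47.9 in *Eppk1*-/- *Lyve1* and *Fcna* macrophages, against 37.1 and 36.4 in Langerhans cells. *H2-Eb1* took 13.7 and 18.9 in the former and 23.9 and 23.9 in the latter.

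In keratinocytes the 7 genes were low. Summed, they reached 330 and 404 CPM, a ratio of 0.29 (0.26 to 0.33), beside 426 and 343 CPM in fibroblasts and 61.2 and 200.5 CPM in mast cells, which had 7 and 30 UMIs. In thinned cells a UMI of any of the 7 genes was found in 15.2% and 15.7% of keratinocytes, 17.9% and 17.0% of fibroblasts and 9.68% and 26.1% of mast cells. Thinning had set each of these cells to 2000 UMIs. Before it, the median depths over all cells of these groups were 4521 and 4560, 6974 and 6267, and 2289 and 2569 UMIs. Unthinned, the keratinocyte shares were 30.5% and 31.2%. The keratinocyte shares were below those of fibroblasts in each library. Against mast cells the keratinocyte shares were higher in the wildtype and lower in the *Eppk1*-/- library. The mast cell shares rest on 3 of 31 (2.04% to 25.8%) and 12 of 46 cells (14.3% to 41.1%). Their intervals hold the keratinocyte shares, so the order is uncertain. Whether the keratinocyte shares are background was not tested. *Ciita* was at 1.28 CPM (0.94 to 1.70) and 0.763 CPM (0.459 to 1.19), the member past 0.5 downward, where 4.6% of genes were, and its interval reached above 0.

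Most of the keratinocyte UMIs sat in few cells, as the bars of UMIs by cell content show. Cells of at least 10 class II UMIs numbered 63 of 5536 in wildtype and 48 of 4068 in *Eppk1*-/- and held 78.9% and 81.9% of the group's class II UMIs. A UMI of the 6 leukocyte genes was found in 60.3% and 72.9% of them, against 4.24% and 3.68% of keratinocytes without class II UMIs. *Cd207* was found in 17.5% and 16.7% of them, against 0.624% and 0.643%. These shares are unthinned, and depth differed, with medians of 14157 and 10886 UMIs against 4277 and 4338. As levels, the leukocyte genes summed to 590 and 1037 CPM, against 8.87 and 10.4 CPM. Without the cells of at least 10 class II UMIs, a filter on the UMIs being compared, the summed ratio was 0.066. It was 1.11 with doublets removed as planned, by the top 5% of scores in the wildtype and by the threshold of Scrublet in the *Eppk1*-/- library, and -0.20 with the top 5% removed in each. Without cells with a leukocyte UMI it was 0.038.

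The same cells carried the widest ratios between keratinocyte clusters. The cluster led by *Defb6* had a summed ratio of 2.12 and that led by *Krt24* 2.49. Without cells of at least 10 class II UMIs these ratios were 0.10 (-0.11 to 0.30) and 0.34 (-0.06 to 0.73). That filter is on the UMIs being compared, so smaller ratios were partly built in. In the *Krt24* cluster 1 *Eppk1*-/- cell held 334 UMIs.

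**Figure D4:**
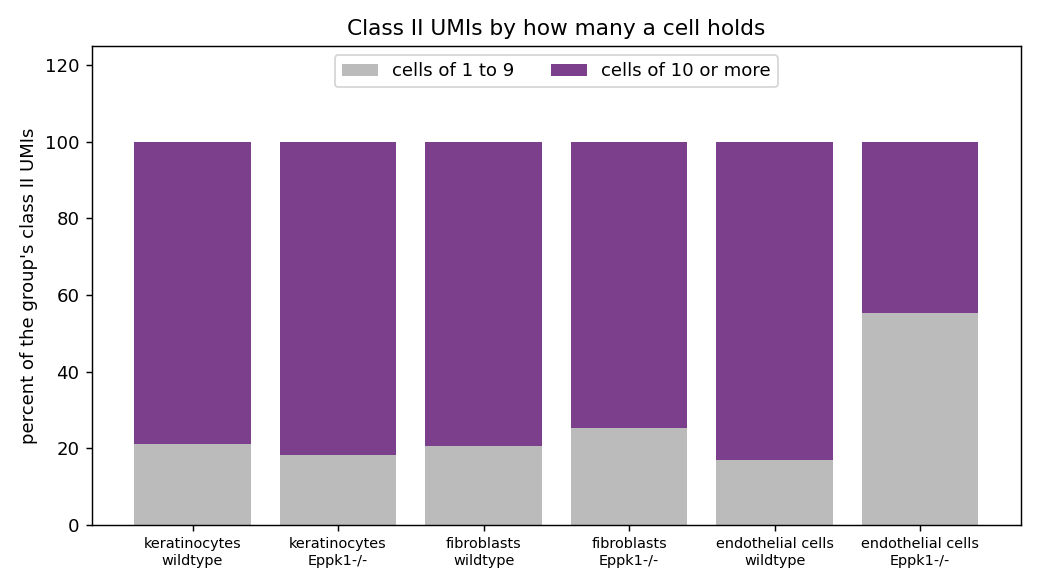
Percent of the class II UMIs of keratinocytes, fibroblasts and endothelial cells found in cells of 1 to 9 such UMIs (grey) and of 10 or more (purple), by library. Cells of 10 or more hold 78.9% and 81.9% in keratinocytes, and 83.2% and 44.8% in endothelial cells, where they number 2 and 1.

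Endothelial cells had lower class II levels in the *Eppk1*-/- library, and 1 wildtype cell held most of the wildtype UMIs. *Cd74* was at 580 CPM (491 to 680) in the wildtype and at 110 CPM (72.0 to 162) in the *Eppk1*-/- library, *H2-Aa* at 294 and 80.6 CPM, *H2-Eb1* at 251 and 67.9 CPM and *H2-Ab1* at 282 and 17.0 CPM. These 4 genes were past 0.5 downward, where 14.9% of genes were, while *H2-DMa*, *H2-DMb1* and *Ciita* had at most 3 UMIs. A single wildtype cell held 264 of the 368 wildtype UMIs (71.7%), together with 17 UMIs of the leukocyte genes. That cell lay in a droplet shared with the other library and was among the 5% of highest doublet scores. The summed ratio was -2.32 with all cells, -0.65 without cells of at least 10 class II UMIs, -0.44 with doublets removed and 0.43 without shared droplets. Of the endothelial cells without class II UMIs, 31 of 64 wildtype and 3 of 35 *Eppk1*-/- cells were marked as doublets, so that removal was unequal between the libraries. In thinned cells, 11 of 35 and 8 of 29 held a UMI of any member.

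The other genes of the pathway were counted from lists. In the *Lyve1* and *Fcna* macrophages, class II accessory genes, which include the RFX and NFY factors, had 0 of 5 counted genes past 0.5 in either direction, with a median of 0.32. Of the lysosomal enzymes that prepare peptides, 0 of 8 were past 0.5 upward and 3 of 8 downward, near the 32.7% of all genes that were, *Ifi30* at -0.75 (-0.85 to -0.65), *Lgmn* at -0.67 (-0.77 to -0.57) and *Ctsz* at -0.60 (-0.69 to -0.52). Class I genes were past 0.5 upward in 0 of 12 and downward in 8 of 12, among them the immunoproteasome gene *Psmb8* (388 and 197 CPM) and the peptide transporter gene *Tap1* (118 and 56.0 CPM), again beside 32.7% of all genes. The median of all genes in that group was -0.26. In the *Ccl8* and *Cd209b* macrophages 3 of 6 accessory genes were past 0.5 upward, where 8.31% of all genes were, the named one being *Creb1* at 44.2 and 67.9 CPM.

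*Cd83*, whose product holds class II at the surface, was past 0.5 upward in 3 of the groups. It was at 81.9 CPM in the wildtype and at 662 CPM in the *Eppk1*-/- *Lyve1* and *Fcna* macrophages, 192 and 323 CPM in the *Ccl8* and *Cd209b* macrophages, 452 and 904 CPM in monocyte-like cells and 1609 and 1749 CPM in Langerhans cells. Of the surface turnover and costimulation list, 2 of 7, 2 of 7, 4 of 6 and 0 of 5 counted genes were past 0.5 upward in those groups, where 8.25%, 8.31%, 6.95% and 6.31% of all genes were. *Cd80* (46.0 and 29.7 CPM) was past 0.5 downward in the first. Beside *Cd83*, the gene past 0.5 upward was *Icam1* (336 and 487 CPM) in the first and *March1* (76.8 and 124 CPM), a ligase that removes class II from the surface, in the second. In monocyte-like cells these were *Cd83*, *Cd86* (530 and 807 CPM), *Cd80* (187 and 265 CPM) and *Ccr7* (278 and 395 CPM).

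The interferon gamma axis list held the receptor, its factors and the genes it is known to induce. In the *Lyve1* and *Fcna* macrophages 1 of 17 was past 0.5 upward, the factor *Irf1* (146 and 392 CPM), and 2 of 17 downward, among them the receptor gene *Ifngr2* (131 and 73.9 CPM), where 8.25% and 32.7% of all genes were. The median ratio of the list was 0.014 there, against -0.26 for all genes. In the *Ccl8* and *Cd209b* macrophages 0 of 16 were past 0.5 upward and 6 of 16 downward, among them *Gbp2* (179 and 70.2 CPM), where 10.7% of all genes were past 0.5 downward. In keratinocytes 9 of 17 were past 0.5 downward and 0 upward, among them *Gbp2* (56.6 and 17.7 CPM), *Cxcl9* (32.0 and 14.5 CPM) and *Iigp1* (7.75 and 1.12 CPM), where 4.6% of all genes were past 0.5 downward. *Irf8*, a factor of dendritic cells, was at 150 and 469 CPM in Langerhans cells. *Ifng* itself had 105 UMIs in 23 wildtype cells and 130 UMIs in 30 *Eppk1*-/- cells of all cells kept.

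Outside the lists, the genes whose level followed the 4 abundant members most closely over 24 points, 12 cell groups in each of 2 libraries, were *Pik3r5* (Pearson r 0.95), *Slamf7* (0.94), *Csf1r* (0.93), *Ncf4* (0.92), *Tbc1d9* (0.92), *Pik3ap1* (0.92), *Cd52* (0.91), *Adgre1* (0.91), *Ptpro* (0.91) and *Mpeg1* (0.91). The points share libraries and the contrast of leukocytes with other cells, so the values are a description. Of these genes, *Pik3r5* (112 and 77.3 CPM), *Cd52* (269 and 205 CPM) and *Adgre1* (430 and 381 CPM) were lower, *Slamf7* (123 and 305 CPM) and *Mpeg1* (217 and 415 CPM) were higher in *Eppk1*-/- *Lyve1* and *Fcna* macrophages, while *Csf1r*, the receptor gene of macrophage growth factor, was at 1342 and 1379 CPM.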

How the data were processed

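Whole skin of 1 wildtype and 1 *Eppk1*-/- mouse was profiled. The authors deposited raw UMI counts per gene and cell from Cell Ranger 8.0.1 on mm10, without normalization, 77638793 and 65118304 UMIs in 9179 and 8811 cells. Kept cells had 200 to 45000 UMIs, between 100 and 7500 detected genes and no more than 10% of UMIs from the 13 mitochondrial genes, which were then dropped. Clustering used Seurat 5.3.0 (R 4.3.3) with 2000 variable features, 49 class II, class I and interferon genes left out of them, 50 principal components, RPCA and Louvain at 0.5, and leukocytes were clustered again. Rules for scoring markers were set after the clusters were seen. Sums, CPM, log2 ratios (0.5 UMI added) and exact Poisson and Clopper-Pearson intervals came from scipy 1.17.1 (Python 3.11.15, pandas 2.3.3, numpy 2.4.6), and the ratio and its interval were tested on simulated data. Genes were counted from 50 UMIs. Each list names up to 4 genes of largest ratio with at least 200 UMIs, and the 10 genes of closest pattern come from those with at least 500 UMIs. Cell markers, *H2-DMb2* and single clusters named beyond that rule were chosen after their values were seen. A count of 0 allows up to 3 counts. Doublets were not removed in the values given; Scrublet (scanpy 1.11.5, expected rate 0.06) marked 0 and 215 cells, so the highest 5% of scores (462 cells) stood for the wildtype in an alternative. edgeR 4.0.16 gave TMM factors. The genes and lists were chosen with earlier results of these data known. Intervals cover counting error only. SCTransform and MAST, which the study used, were not used here. The values of 1 gene of the interferon gamma list are not reported here.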

Additional observations from a re-analysis of the deposited data

Results flagged for a closer look

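The class II genes differed in opposite directions between cell groups under the same contrast of genotypes, and this difference was not tested, since each genotype has 1 library. The summed log2 ratio was 2.55 in the *Lyve1* and *Fcna* macrophages, 1.49 in all macrophages, 0.52 in the *Ccl8* and *Cd209b* macrophages and 1.38 in T and NK cells, and -2.32 in endothelial cells. Among endothelial cells 1 wildtype cell held 264 of the 368 wildtype UMIs, and the endothelial value was 0.43 without shared droplets. In T and NK cells, 1094 and 2667 UMIs of the 7 genes were found, the cluster ratios were 4.70 in that led by *Cd6*, 1.40 in that led by *Tcrg-V5* and -3.55 in that led by *Cd163l1*, the last being -0.43 at resolution 1 with 47 and 69 in place of 47 and 67 cells, and cells of at least 10 such UMIs per 2000 numbered 4 of 72 and 7 of 58.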

How the results depend on the processing

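Summed log2 ratios of the 7 genes are given, with 2.55 in *Lyve1* and *Fcna* macrophages, 0.52 in *Ccl8* and *Cd209b* macrophages, 1.49 in all macrophages, 0.34 in monocyte-like cells, 0.12 in Langerhans cells, 0.29 in keratinocytes and -2.32 in endothelial cells as reported. In that order of groups, values that moved by more than the counting interval were as follows. Without integration they were 2.14, 0.48, 1.62 and 0.39, and 0.092 in keratinocytes. There the 2.14 compares 218 wildtype with 13 *Eppk1*-/- cells. The 1.62 leaves out the unnamed cluster led by *Ccl4* and *Ccl3* (7 and 163 cells), which had 11 macrophage markers detected. TMM scaling gave 2.77, 0.58, 1.59, 0.40 and 0.15, and centring on the median 2.81, 0.58, 1.61, 0.39 and 0.14. The mean over cells gave 2.50, 0.46, 1.02 and 0.41, then 0.42 in keratinocytes and -1.01 in endothelial cells. Thinning gave 2.50, 0.49, 1.16 and 0.33, and 0.41 in keratinocytes. Without cells holding RNA of other types the values were 2.51, 0.42, 1.43 and 0.32, then 0.038 in keratinocytes and -1.50 in endothelial cells. Removing doublets gave 2.62 and 1.51 in the *Lyve1* and all macrophages, 1.11 in keratinocytes and -0.44 in endothelial cells. Without shared droplets the values were 2.59, 0.55, 0.092 in Langerhans cells, 0.62 in keratinocytes and 0.43 in endothelial cells. Resolution 1 gave 0.36 in monocyte-like cells and 0.25 in keratinocytes. It gave 0.18 for Langerhans cells pooled with the dendritic-like cluster led by *Wdfy4* (78 and 76 cells). The Langerhans cluster alone (122 and 93 cells) stayed at 0.12. Class II genes among the variable features gave 0.38 in monocyte-like cells and 0.083 in keratinocytes, and the stricter cell filter 1.51 in all macrophages.

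Chosen after seeing the data, the highest scores removed alike in each library gave 2.62, -0.20 in keratinocytes and -0.52 in endothelial cells; leaving out cells of at least 10 class II UMIs gave 0.066 and -0.65 in the latter groups; clusters weighted by wildtype shares gave 1.38 in macrophages and 0.39 in keratinocytes; macrophages without the shallow cluster gave 1.52; *Lyve1* and *Fcna* cells of 3000 to 10000 UMIs gave 2.38 and those with all of *Lyve1*, *Fcna* and *Timd4* 2.47. For single genes, *Ciita* in keratinocytes was 1.06 without doublets. In endothelial cells *H2-Aa* was 0.21 without doublets, 1.26 without shared droplets, 0.0088 with scores removed alike and 0.083 without cells of at least 10, *H2-Eb1* was 0.14, 1.65, 0.11 and 0.63 in that order, and *Cd74* was 0.15 without shared droplets, while *H2-Ab1* was lower in each of 12 alternatives, from -5.92 (thinned, where no *Eppk1*-/- cell held a UMI, so that the value depends on the added 0.5) to -1.26. The cause was not tested. Without integration no cluster was named endothelial, so that value was not run. Counting any gene with a UMI in place of 50 UMIs gave 2196 against 585 genes past 0.5 upward and 4183 against 2322 downward in *Lyve1* and *Fcna* macrophages, 2551 against 581 and 2599 against 745 in *Ccl8* and *Cd209b* macrophages, 2549 against 332 and 3133 against 555 in monocyte-like cells, 2185 against 221 and 3324 against 303 in Langerhans cells, 1799 against 351 and 1992 against 543 in keratinocytes, and 3465 against 396 and 3808 against 364 in endothelial cells.

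No paired analysis was possible because each genotype has 1 library. Spread between mice is unknown, and no interval given covers it. *Ciita*, *H2-DMa* and *H2-DMb1* are also limited by few UMIs.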
